A study of Mus musculus with 12 samples.

Results

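The transcripts of p53, of its main negative regulators and of a set of its target genes were examined in brain cortex of mice after binge-like drinking. The set holds 10 genes, picked by gene symbol from the 33024 symbols of the count table: Trp53, Mdm2, Mdm4, Bbc3, Bax, Pmaip1, Phlda3, Gadd45a, Ccng1 and Zmat3. Cdkn1a, the best known p53 target, stands outside the set and is given with the wider pathway. All 10 genes were found and passed the filter on low counts, which kept 16059 genes. The libraries come from wildtype C57BL/6 mice, 7 in the Control group and 5 in the EtOH group, and each library is treated as 1 mouse. The labels do not say more of how the samples relate, so p-values measure the spread between these samples. EtOH mice entered the two-bottle choice drinking-in-the-dark paradigm at 30 days of age and could choose between water and 20% (v/v) ethanol in 35 sessions of 12 h. Control mice (treatment label Vehicle) had water in both bottles. Both groups then went through 14 days of abstinence and behavioural tests before the cortex was taken.

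p53, encoded by Trp53 in the mouse, is a transcription factor that is kept at a low level by rapid breakdown and is stabilised when DNA is damaged. Mdm2 is the ubiquitin ligase that marks p53 for breakdown and is itself a p53 target, while Mdm4 binds p53 and blocks its activity. Once active, p53 raises genes that halt the cell cycle or start cell death at the mitochondrion. Since most control of p53 acts on the protein, the level of Trp53 RNA and the activity of p53 need not go together.

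Total counts per mouse lay between 31768076 and 42183029. Control mouse 5 and EtOH mouse 1 were the deepest libraries of their groups. Levels are given as CPM, the counts of a gene scaled to a common library size with edgeR's TMM factors, and 3 counts correspond to at most 0.0962 CPM. Cortical neuron markers were present in both groups, with a summed level of 2670 to 3150 CPM in Control and 2500 to 3070 CPM in EtOH mice, and 5 of the 8 had a negative log2 fold change. At an adjusted p under 0.05 in edgeR, 3 were higher (Fezf2, Cux2 and Neurod6) and 2 lower (Tbr1 and Rbfox3), and of these Fezf2 alone was called. Markers of neighbouring brain regions differed strongly. All 15 striatum markers were called lower (summed level 1360 to 3060 CPM in Control and 383 to 494 CPM in EtOH mice), all 8 hippocampus markers were called higher (29.1 to 36.5 CPM against 138 to 183 CPM), and no marker of either list was at 0 in every EtOH mouse. Over all genes, 4.09% were called lower and 4.20% higher. The marker lists were chosen with earlier results of these data known. The part of these regional differences in the results below was not tested.

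Promoter windows of RefSeq (mouse build GRCm38.p6) ran from 250 bases before to 50 after the transcription start. They were searched for the p53 consensus decamer, the basic unit of a p53 binding site. It reads the same on both strands. Of the 10 genes, 8 had a promoter entry, and 5 of these 8 held the decamer (Trp53, Mdm2, Bax, Gadd45a and Ccng1), while 9.55% of all 27025 genes with an entry did. Counted by window, it was in 5 of 11 windows of the set (45.5%) and in 8.36% of all 32851. Of the other p53 targets described below, 9 of 23 genes with an entry held it (39.1%). Mdm4, Bbc3 and Phlda3 held none in this window, and there was no entry for Pmaip1 or Zmat3. The matches are printed below with 20 bases on either side, the decamer in capitals, and Cdkn1a, which held 2 of them, is shown for comparison. They lie at chr11:69580264-69580313 (+) for Trp53, chr10:117710915-117710964 (-) for Mdm2, chr7:45467070-45467119 (-) for Bax, chr6:67037418-67037467 (-) for Gadd45a, chr11:40755442-40755491 (-) for Ccng1 and chr17:29090886-29090957 (+) for Cdkn1a. For Phlda3, a gene without a match whose transcript fell, the 100 bases before the start (chr1:135765985-135766084, +) follow in lower case. A match is a description of the letters and was not tested as a binding site.
Trp53: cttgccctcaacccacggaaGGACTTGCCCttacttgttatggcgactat
Mdm2: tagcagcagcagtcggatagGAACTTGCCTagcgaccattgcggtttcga
Bax: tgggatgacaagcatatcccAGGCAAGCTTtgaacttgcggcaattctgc
Gadd45a: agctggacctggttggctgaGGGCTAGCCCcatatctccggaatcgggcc
Ccng1: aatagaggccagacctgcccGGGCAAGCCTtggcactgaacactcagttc
Cdkn1a: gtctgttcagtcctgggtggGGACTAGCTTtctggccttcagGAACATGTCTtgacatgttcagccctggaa
Phlda3: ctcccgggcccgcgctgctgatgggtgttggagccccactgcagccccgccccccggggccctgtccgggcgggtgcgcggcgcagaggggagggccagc

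Of the 10 genes, 2 were called lower in the EtOH mice, Pmaip1 and Phlda3, and 0 were called higher. A call required that the Benjamini-Hochberg adjusted p of edgeR's quasi-likelihood test over all 16059 genes was under 0.05, and that the size of the log2 fold change exceeded 0.5. Over all genes, 8.29% were called, 4.09% as lower and 4.20% as higher. Without the minimum fold change, 1 gene passed the test as higher, Mdm4, against 12.1% of all genes, and 3 of the 10 passed in either direction against 23.7% (11.6% lower). DESeq2 and limma voom also called 2 lower and 0 higher, and by each of the 3 tools 1 of the 10 was higher and 2 were lower at an unadjusted p under 0.05, which in edgeR held for 18.6% (higher) and 17.9% (lower) of all genes. In these same 2 genes every EtOH mouse lay below every Control mouse, which held for 4.96% of all genes. None had every EtOH mouse above (4.84% of all genes), and groups did not overlap in either direction in 9.81%. The median log2 fold change of the 10 genes was 0.06, beside 7.21e-05 for all genes tested, with 6 values above and 4 below zero.

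**Figure D1:**
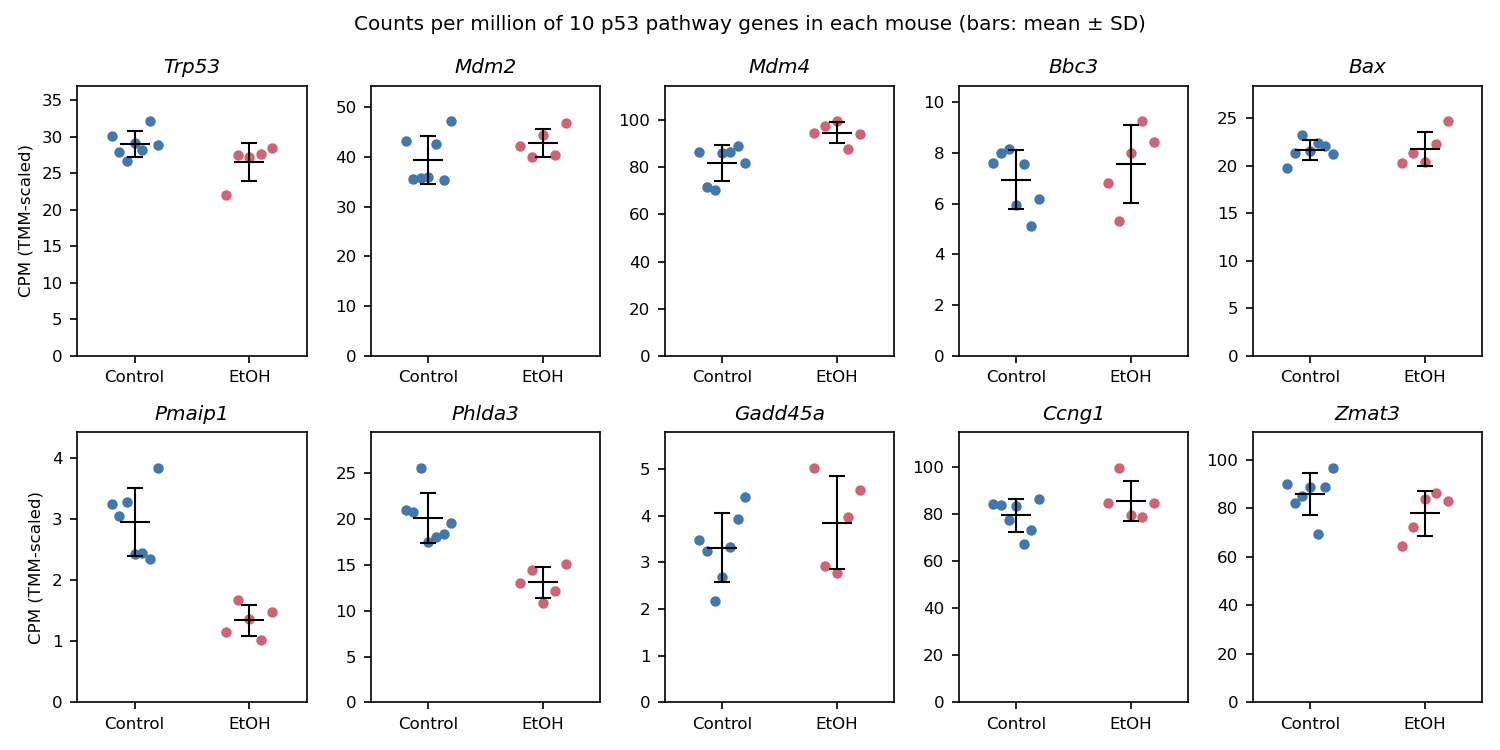
CPM (TMM-scaled, linear axes from 0) of each of the 10 genes in 7 Control and 5 EtOH mice, a point per mouse, with the mean and SD as bars. The groups separate in Pmaip1 (1.03 to 1.68 CPM in EtOH, 2.36 to 3.85 CPM in Control mice) and Phlda3 (10.9 to 15.1 against 17.5 to 25.6 CPM) and overlap in the other 8.

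**Figure D2:**
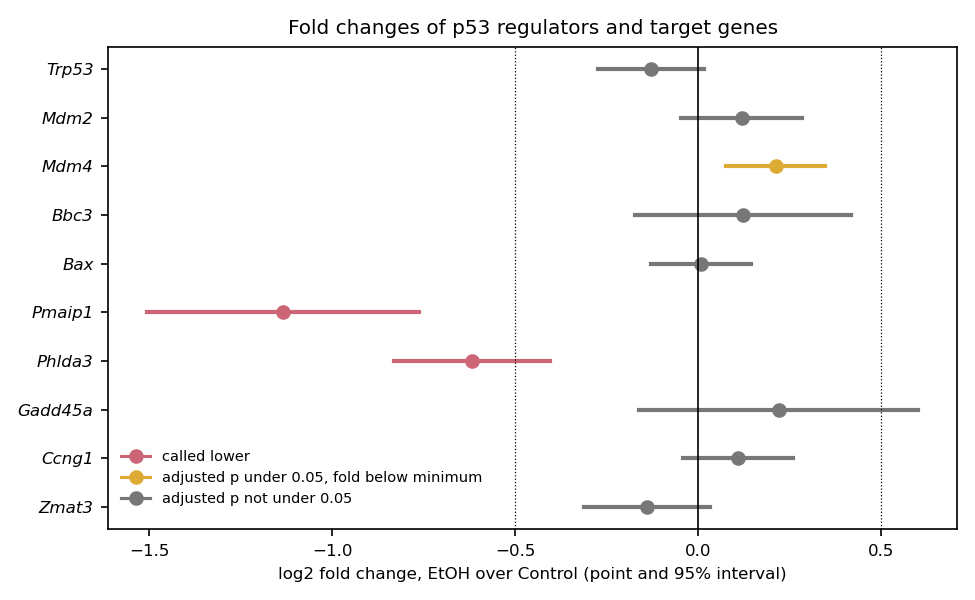
Log2 fold change of EtOH over Control for the 10 genes, with 95% intervals from the edgeR fit and dotted lines at the minimum fold change of 0.5 in size. Pmaip1 at -1.13 and Phlda3 at -0.62 lie left of the line, Mdm4 at 0.21 has an interval above zero, and the intervals of the other 7 include zero.

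Among the targets that act in cell death, the transcript of Pmaip1 fell furthest. Pmaip1 encodes Noxa, a small BH3-only protein that neutralises the survival protein Mcl-1. It lies on chromosome 18 of GRCm39 from 66591604 to 66598636, and its exons overlap no other annotated gene. The EtOH mice 1 to 5 had 1.16, 1.68, 1.37, 1.03 and 1.49 CPM, and the 7 Control mice ranged from 2.36 to 3.85 CPM with a median of 3.06. No EtOH mouse reached the lowest Control mouse. On the log2 scale the change was -1.13 ± 0.18 (SE, adjusted p = 0.000178 in edgeR), or 0.455 times the Control level with a 95% interval from 0.352 to 0.589. These levels rest on few reads, between 34 and 54 counts in each EtOH mouse and between 74 and 120 in each Control mouse. The call held in all 12 fits that left out 1 mouse, with log2 fold changes between -1.23 and -1.06.

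Phlda3 encodes a small pleckstrin homology domain protein that competes with Akt for membrane lipids and so dampens survival signalling. It lies on chromosome 1 from 135693809 to 135697686, and its exons overlap no other annotated gene. EtOH mice 1 to 5 had 13.0, 14.4, 10.9, 12.2 and 15.1 CPM. Control mice ranged from 17.5 to 25.6 CPM with a median of 19.6, so the highest EtOH mouse stayed below the lowest Control mouse. Its log2 fold change came to -0.62 ± 0.10 (SE, adjusted p = 0.000305 in edgeR), a fall to 0.652 times the Control level (95% interval 0.562 to 0.756). Control mouse 3 was the highest, and without it the gene remained called, as it did without any other mouse, with log2 fold changes between -0.68 and -0.55.

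Cell type markers also moved between the groups. Of the oligodendrocyte markers, 7 of 8 had an adjusted p under 0.05 and were lower in EtOH mice (summed level 4430 to 5880 CPM in Control and 2970 to 5310 CPM in EtOH mice, 2 of 8 called). The microglia markers summed to 296 to 324 CPM in Control and 255 to 279 CPM in EtOH mice, with 4 of 7 under an adjusted p of 0.05 and 0 called. For endothelial markers the ranges were 202 to 227 and 193 to 214 CPM, and 1 of 6 was called lower. The inhibitory neuron markers summed to 909 to 1240 CPM in Control and 768 to 822 CPM in EtOH mice, with 2 of 6 called lower. Astrocyte markers ran from 3540 to 4040 and from 3820 to 4370 CPM, with 3 of 8 higher at an adjusted p under 0.05 and 1 of them called. Of the 4 oligodendrocyte precursor markers, 2 were higher at an adjusted p under 0.05 and none was called (110 to 137 and 125 to 158 CPM), and none of the 5 blood markers was (9.18 to 128 and 9.74 to 74.1 CPM). Choroid plexus markers ran from 7.44 to 20.8 CPM in Control and from 11.5 to 985 CPM in EtOH mice, so that the ranges overlapped, with 3 of 4 tested markers called higher. In bulk tissue, fewer cells of a type and less RNA per cell cannot be told apart, and the part of these cell types in the fall of Pmaip1 and Phlda3 was not tested.

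The other apoptotic targets among the 10 genes did not pass the test. Bbc3, which encodes Puma, a BH3-only protein that binds all main survival members of the Bcl-2 family, had 6.81, 5.32, 8.02, 9.25 and 8.42 CPM in EtOH mice 1 to 5. In the Control mice it ranged from 5.13 to 8.14 CPM with a median of 7.55, so the groups overlapped, with EtOH mice 4 and 5 above every Control mouse. The log2 fold change was 0.12 (95% interval -0.17 to 0.42, edgeR adjusted p = 0.562). Bax, the effector that permeabilises the outer mitochondrial membrane, was among the steadiest of the 10 genes. It had 20.3, 21.3, 20.4, 22.2 and 24.7 CPM in EtOH mice 1 to 5 and 19.8 to 23.3 CPM, median 21.5, in Control mice. Its log2 fold change was 0.01, with an adjusted p of 0.949 in edgeR. The 95% interval ran from -0.13 to 0.14, or from 0.914 to 1.10 times the Control level. The sign of the log2 fold change turned in 3 of the 12 fits that left out 1 mouse. Of its exons, 252 bases overlap other genes, 1 on the same and 1 on the opposite strand, so its reads are uncertain to that extent.

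Trp53 itself did not pass the test. It lies on chromosome 11 from 69469669 to 69482701, and its exons overlap those of 2 genes on the opposite strand, Wrap53 among them, from which its reads cannot be separated unless strand was used in counting. EtOH mice 1 to 5 had 22.0, 27.5, 27.2, 27.6 and 28.5 CPM, and Control mice ranged from 26.6 to 32.1 CPM with a median of 28.8. All 5 EtOH mice lay below the Control median, but EtOH mouse 1 alone lay below every Control mouse. The log2 fold change was -0.13 (95% interval -0.27 to 0.02, edgeR adjusted p = 0.189). Without EtOH mouse 1 and Control mouse 5, the deepest libraries, it was -0.07 (edgeR adjusted p = 0.451).

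Of the negative regulators, Mdm4 passed the test and Mdm2 did not. Mdm4 lies on chromosome 1 from 132887222 to 132958299. EtOH mice 1 to 5 had 94.5, 97.4, 99.5, 87.9 and 94.1 CPM, and Control mice ranged from 70.5 to 88.8 CPM with a median of 86.2. Of the EtOH mice, 4 lay above every Control mouse, and Control mice 2 and 3 were the lowest. The log2 fold change came to 0.21 ± 0.06 (SE, adjusted p = 0.0236 in edgeR), or 1.16 times the Control level (95% interval 1.05 to 1.27), below the minimum fold change. The test was no longer passed without EtOH mouse 2 (edgeR adjusted p = 0.0505) or without EtOH mouse 3 (0.0591).

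Mdm4 has the longest annotated exons of the 10 genes, 20.4 kb in all, and fold changes over all genes varied with that length. Among the 3069 tested genes with 10 kb or more of exon, the median log2 fold change was 0.08 and 23.3% were higher with an adjusted p under 0.05. Among the 4803 genes with 2 to 5 kb, to which Pmaip1 (2.73 kb) and Phlda3 (2.59 kb) belong, the median was -0.07 and 14.9% were lower with an adjusted p under 0.05. The part of transcript length in the Mdm4 result was not tested.

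Mdm2, on chromosome 10 from 117524780 to 117546730, had 42.1, 40.0, 44.5, 40.5 and 46.8 CPM in EtOH mice 1 to 5. Control mice ranged from 35.3 to 47.2 CPM with a median of 36.1, and 4 of the 7 lay below every EtOH mouse while Control mouse 7 lay above them all. The log2 fold change of 0.12 (95% interval -0.05 to 0.28) did not pass the test (edgeR adjusted p = 0.289). Of its exons, 348 bases overlap a gene on the opposite strand.

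Of the targets among the 10 genes that are linked to growth arrest and repair, none passed the test. Gadd45a, whose product binds PCNA and stress kinases, varied more between mice than any other of the 10 genes, with a coefficient of variation of 22.2% in Control and 25.7% in EtOH mice. EtOH mice 1 to 5 had 5.03, 2.92, 2.77, 3.97 and 4.56 CPM, and Control mice ranged from 2.18 to 4.39 CPM with a median of 3.32. Its log2 fold change was 0.22 (edgeR adjusted p = 0.404), and the 95% interval from -0.16 to 0.60 includes changes above the minimum fold change. Of its exons, 990 bases overlap a gene on the opposite strand. Ccng1, which encodes cyclin G1, a partner of phosphatase PP2A in the feedback on Mdm2, had 85.1, 99.9, 79.8, 79.1 and 85.1 CPM in EtOH mice 1 to 5, and 67.5 to 86.5 CPM, median 83.6, in Control mice. The groups overlapped (log2 fold change 0.11, 95% interval -0.04 to 0.26, edgeR adjusted p = 0.291), and 114 bases of its exons overlap a gene on the opposite strand. Zmat3, an RNA-binding zinc finger protein that acts on splicing, was below the Control median in 5 of 5 EtOH mice, with 64.6, 72.3, 83.7, 86.2 and 83.0 CPM. Control mice ranged from 69.5 to 96.7 CPM with a median of 88.8, and the log2 fold change of -0.14 (95% interval -0.31 to 0.03) did not pass the test (edgeR adjusted p = 0.228).

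Levels between genes were compared per kilobase of annotated exon. In Control mice, Ccng1 was the highest at 18.1 ± 1.59 CPM per kb (SD, n = 7), followed by Bax at 11.7 ± 0.589 CPM per kb, and neither range overlapped the next. Phlda3 (7.77 ± 1.06 CPM per kb) and Zmat3 (7.50 ± 0.741 CPM per kb) came next and could not be ordered, with Phlda3 above Zmat3 in 4 of 7 mice. Mdm2 stood at 5.11 ± 0.630 CPM per kb, above Mdm4 at 4.01 ± 0.370 CPM per kb in 7 of 7 mice, and Mdm4 and Trp53 (3.93 ± 0.236 CPM per kb) overlapped. The lowest were Gadd45a at 1.87, Bbc3 at 1.45 and Pmaip1 at 1.08 CPM per kb, with overlapping ranges between neighbours. In EtOH mice, Phlda3 stood at 5.06 ± 0.654 CPM per kb (SD, n = 5), with a range that overlapped that of Mdm2 (5.55 ± 0.370 CPM per kb), and Pmaip1 at 0.493 ± 0.0945 CPM per kb. The length counts every annotated exon, so a gene with many rare exons, such as Mdm4, can appear lower than its main transcript.

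**Figure D3:**
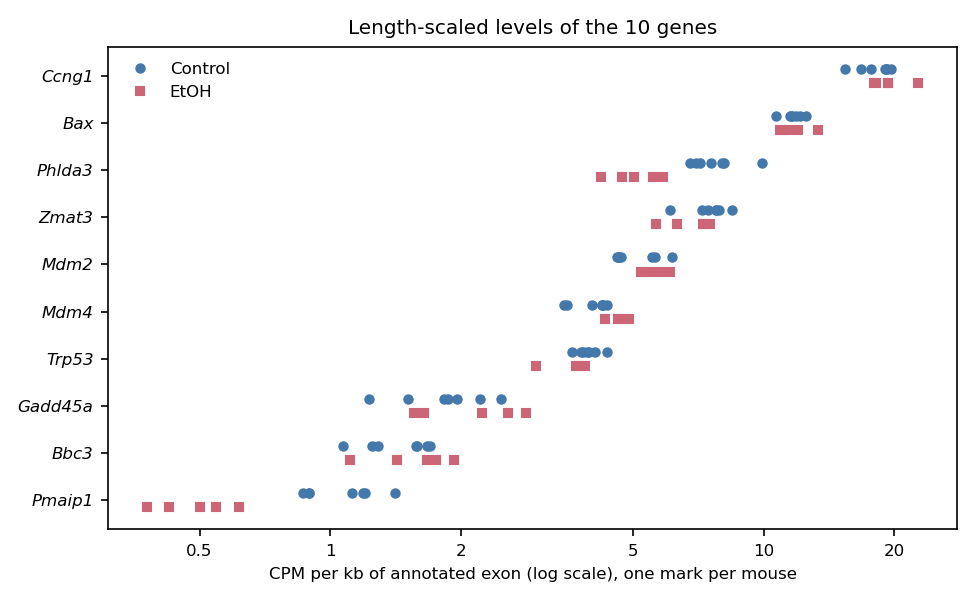
CPM per kb of annotated exon (log axis) for the 10 genes, a mark per mouse, Control as circles and EtOH as squares, ordered by the Control mean. Ccng1 and Bax are highest and Pmaip1 lowest in both groups, and the EtOH marks of Phlda3 and Pmaip1 lie to the left of all Control marks.

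After subtracting group means, the 45 pairwise correlations of log2 CPM over the 12 mice ranged from -0.581 to 0.682 with a median near zero (-0.00167). The highest was between Pmaip1 and Ccng1 (r = 0.682), followed by Trp53 and Zmat3 (0.619) and Pmaip1 and Phlda3 (0.573). Mdm4 and Phlda3 had the lowest (-0.581). These values are descriptions over 12 libraries that also share depth and tissue make-up. By the same measure, the genes outside the set with the most similar pattern were Slc30a7, Mutyh and Tbp for Trp53 (r = 0.944, 0.941 and 0.930), Abhd4, Haus3 and Arhgap15 for Pmaip1 (0.899, 0.887 and 0.886), and Recql5, 4930519K11Rik and Gm13306 for Phlda3 (0.957, 0.901 and 0.894). They were picked as the 3 highest of all tested genes, so large values are in part due to this choice. EtOH mouse 1 stood apart in Trp53 (22.0 CPM, next 27.2 CPM), and its part in the Trp53 values was not tested. None of these 9 genes was called between the groups, but some were lower in EtOH mice at an adjusted p under 0.05 in edgeR. These were Abhd4 (log2 fold change -0.171, adjusted p = 0.02525), Arhgap15 (-0.375, 0.00644) and Gm13306 (-0.297, 0.0205), and the rest did not pass the test. Abhd4 is also among the other p53 targets described below.

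Ratios between genes within a library do not depend on the scaling between libraries, and 3 were compared. The log2 ratio of Bax to Bcl2l1, the gene of the survival protein Bcl-xL, was -2.24 ± 0.15 (SD, n = 5) in EtOH and -2.47 ± 0.13 (SD, n = 7) in Control mice. EtOH mice 1 to 5 had -2.23, -2.09, -2.44, -2.34 and -2.12, of which 3 lay above every Control mouse. The groups differed by 0.23 (two-sided exact permutation p = 0.0215), which did not hold after adjustment over the 3 ratios (adjusted p = 0.0644), and with 1 mouse left out the adjusted value lay between 0.0364 (without EtOH mouse 3) and 0.155 (without EtOH mouse 2 or 5). It was under 0.05 in 1 other such case, without Control mouse 5 (0.0455). For Bax to Bcl2 the difference was 0.175 (0.33 ± 0.23 in EtOH, n = 5, and 0.16 ± 0.16 in Control mice, n = 7, exact permutation p = 0.152, adjusted 0.227), and 0.0883 without EtOH mouse 2. For Mdm2 to Mdm4 it was -0.09 (-1.15 ± 0.10, n = 5, and -1.06 ± 0.18, n = 7, exact permutation p = 0.342, adjusted 0.342), and between -0.136 and -0.0467 with 1 mouse left out. With 7 and 5 mice, no permutation p can fall below 0.00126.

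In the wider pathway, other p53 targets were called about as often as all genes. Of 30 listed genes, 28 were tested. Of these, 1 was called higher and 1 lower, beside 4.20% and 4.09% of all genes. At an unadjusted p under 0.05 in edgeR, 4 were higher and 5 lower, beside 18.6% and 17.9% of all genes. The median log2 fold change of the list was 0.05. Cdkn1a, which encodes the cell cycle inhibitor p21, was called lower. It had 13.6, 8.43, 9.75, 12.5 and 19.7 CPM in EtOH mice 1 to 5 and 25.7 ± 5.59 CPM (SD, n = 7) in Control mice, which on the log2 scale is -1.0 ± 0.19 (SE, adjusted p = 0.000974 in edgeR). EtOH mouse 5 lay above the lowest Control mouse (16.5 CPM), and the other 4 below every Control mouse. Its exons overlap 2 genes on the opposite strand over 753 bases. Apaf1, the scaffold of the apoptosome that activates caspase-9, was called higher. It lies on chromosome 10 from 90825173 to 90918686 and has 10591 bases of annotated exon.

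Apaf1 had 24.5, 14.2, 25.9, 22.5 and 17.9 CPM in EtOH mice 1 to 5, each above the 9.31 to 12.7 CPM of the Control mice. The log2 fold change came to 0.85 ± 0.12 (SE, adjusted p = 9.43e-05 in edgeR) and lay between 0.76 and 0.95 with any 1 mouse left out. Sulf2, a sulfatase acting on heparan sulfate, was lower in 5 of 5 EtOH mice than in every Control mouse, with a log2 fold change of -0.30 and an adjusted p of 0.000633 in edgeR, below the minimum fold change. Gdf15 and Trp53cor1 were below the filter.

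Enzymes and partners that act on p53 were listed as 23 genes, of which 22 were tested and 0 were called in either direction by edgeR or DESeq2. At an unadjusted p under 0.05, 11 of 22 were higher and 1 lower in edgeR, where 18.6% and 17.9% of all genes were, and limma voom called 1 higher. The median log2 fold change of this list was 0.16, and 17 of 22 values were positive. The smallest p belonged to Cop1, a ubiquitin ligase of p53 (log2 fold change -0.31, edgeR adjusted p = 0.00297), followed by Huwe1, another ubiquitin ligase (0.32, adjusted p = 0.0112), and Ep300, the acetyltransferase p300 (0.33, adjusted p = 0.0155). Cop1, Huwe1 and Ep300 all have more than 10 kb of annotated exon. Cdkn2a was below the filter.

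Of 18 genes of the Bcl-2 family and the caspase cascade, 17 were tested, 0 were called higher and 1 lower by each of the 3 tools, beside 4.20% and 4.09% of all genes in edgeR. At an unadjusted p under 0.05 in edgeR, 0 were higher and 2 lower (18.6% and 17.9% of all genes). The called gene was Bok, a Bax-like effector, on chromosome 1 from 93613193 to 93623498. It fell from 37.9 ± 3.11 CPM (SD, n = 7) to 24.2 ± 4.30 CPM (SD, n = 5), with every EtOH mouse below every Control mouse, which on the log2 scale is -0.65 ± 0.10 (SE, adjusted p = 0.000114 in edgeR). Bcl2l1 had a log2 fold change of -0.22 and an adjusted p of 0.0180 in edgeR (0.0613 without EtOH mouse 1). For Cycs, the gene of cytochrome c, the values were -0.18 and 0.139, and with 1 mouse left out the log2 fold change lay between -0.23 (without Control mouse 6, adjusted p = 0.0388) and -0.12 (without Control mouse 2, adjusted p = 0.270). Bik was below the filter.

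Of 8 paralogs of the set, 7 were tested and 0 were called by any of the 3 tools, while 2 were higher and 3 lower at an unadjusted p under 0.05 in edgeR, beside 18.6% and 17.9% of all genes. Ccng2, which encodes cyclin G2, was lower in every EtOH mouse than in every Control mouse (log2 fold change -0.34, edgeR adjusted p = 0.000636). Zmat4 was higher in every EtOH mouse than in every Control mouse (log2 fold change 0.48, edgeR adjusted p = 0.00160, and above 0.5 without EtOH mouse 3 or 4), and Ccni, of the cyclin family, had a log2 fold change of -0.20 and an adjusted p of 0.0629 in edgeR (0.0100 without Control mouse 5 and 0.0175 without EtOH mouse 2). Phlda2 was below the filter.

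**Figure D4:**
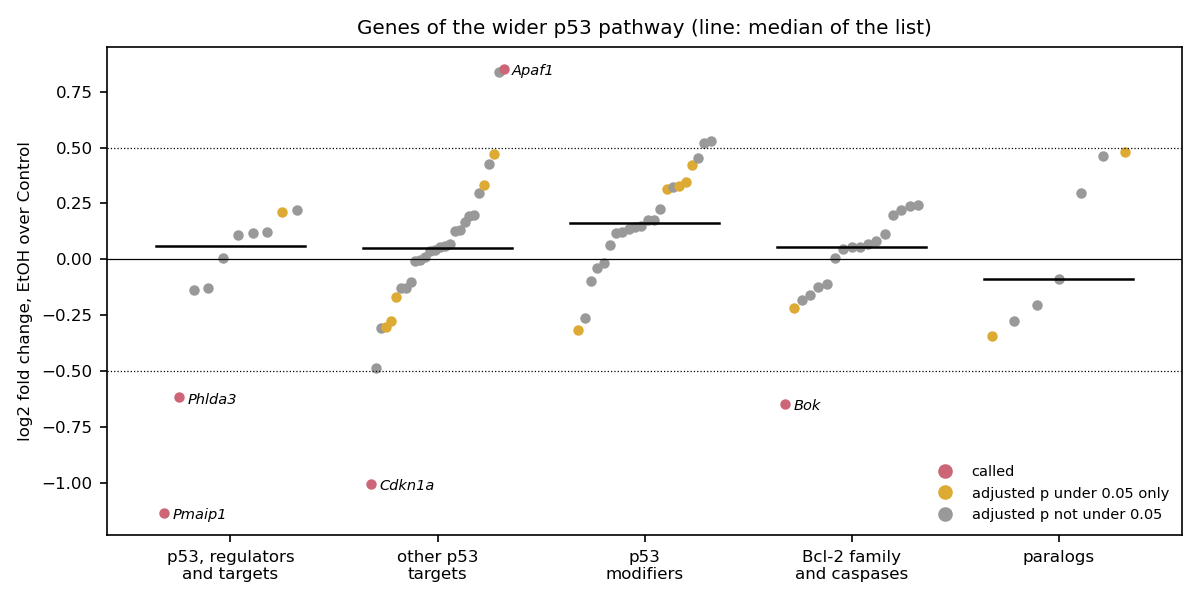
Log2 fold change of EtOH over Control for the tested genes of the set and of 4 other lists, a point per gene, with a line at each list's median and dotted lines at 0.5 in size. The 5 called genes are named: Pmaip1, Phlda3, Cdkn1a and Bok were lower, and Apaf1 was higher.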

How the data were processed

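Total RNA of 12 cortex samples was sequenced by BGI. The authors checked the reads with FastQC 0.11.9, used STAR for alignment (build GRCm39, annotation Gencode Release 28) and featureCounts for counting, and deposited expected counts per gene symbol without normalization; strand and multi-mapping settings are not given in the sources used here. For 61 symbols, none of the 10 genes, counts were not whole, and all were rounded. Genes were kept with filterByExpr, scaled with TMM and tested with edgeR's quasi-likelihood test (R 4.3.3, edgeR 4.0.16, limma 3.58.1) with Benjamini-Hochberg adjustment, without covariates. Calls needed both the adjusted p under 0.05 and the size of the log2 fold change over 0.5. The standard error is the log2 fold change divided by the square root of F. Ratios used log2 CPM with a prior count of 2 and exact permutation of the mice.

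The 10 genes, the pathway lists and the marker lists (striatum, hippocampus, cortical and inhibitory neuron, astrocyte, oligodendrocyte and precursor, microglia, endothelial, choroid plexus, blood) were chosen with earlier results of these data known. Named are the 10 genes, and of each list the called genes and those with the smallest p up to 3, plus Cdkn1a and the 3 genes closest in pattern to Trp53 and each called gene. The kinases Atm, Prkdc, Atr, Hipk2, Chek1 and Chek2, the cortical neuron markers named, genes below the filter, and the comparison by exon length were chosen after the values were seen. Positions are from Gencode release 39 of the same build, and exon lengths matched 97.3% of tested genes. Depth was 31768076 to 42183029 counts. As alternatives, limma voom, DESeq2 1.42.0, RLE and upper quartile factors, at least 1 count in any mouse or 10 in every mouse, other fold minimums, a replicate block, a prior count of 0.5, each mouse left out, and, added after seeing the data, both deepest libraries left out, were run. The fits were tested on simulated data. Within a group, every pair of libraries differed beyond counting noise (chi-square over its degrees of freedom at least 7.84).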

Additional observations from a re-analysis of the deposited data

Results flagged for a closer look

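In 6 of 34 checks, each on a single gene, ratio or total within a group, the highest or lowest mouse stood apart from the rest of its group, where chance gives about 1.70. EtOH mouse 1 had the lowest Trp53 level of its group at 22.0 CPM, with the next mouse at 27.2 CPM. EtOH mouse 1 was also the deepest EtOH library with 42183029 counts (next 33313165), and Control mouse 5 the deepest Control library with 40690223 counts (next 32356913). Control mouse 3 had the highest Control level of Phlda3 at 25.57 CPM (next 20.95 CPM) and the lowest of Apaf1 at 9.311 CPM (next 11.36 CPM). EtOH mouse 2 had the highest EtOH level of Ccng1 at 99.9 CPM (next 85.1 CPM).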

How the results depend on the processing

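The fall of Pmaip1 and Phlda3 was called under all 20 alternatives of the fit, with log2 fold changes from -1.23 to -1.06 and from -0.68 to -0.55, and the numbers of the 10 genes called lower and higher stayed at 2 and 0 in each. Without a minimum fold change 1 gene counted as higher, and with a minimum of 1 on the log2 scale 1 counted as lower. The adjusted p of Mdm4 lay between 0.0120 and 0.0591 and was under 0.05 in 18 of 20. The values of Trp53, Mdm2, Bbc3, Gadd45a, Ccng1 and Zmat3 kept their direction and did not pass the test in any alternative, but their size moved: Trp53 from -0.16 to -0.06 (-0.06 without EtOH mouse 1), Mdm2 from 0.08 to 0.17, Bbc3 from 0.01 (replicate block) to 0.22, Gadd45a from 0.11 (without EtOH mouse 1) to 0.36 (replicate block), Ccng1 from 0.04 (without EtOH mouse 2) to 0.13 and Zmat3 from -0.19 to -0.07 (without EtOH mouse 1). With 1 mouse left out, Bax lay between -0.0437 and 0.0366, the Bax to Bcl2l1 difference between 0.190 and 0.275, and the Bax to Bcl2 difference between 0.0883 and 0.241. Under the same leaving out, 1 to 2 other p53 targets were called higher (2 without Control mouse 1, 5 or 7 or EtOH mouse 1 or 3), 0 to 3 p53 modifiers (3 without Control mouse 5, 1 without Control mouse 6 or 7) and 0 to 1 paralogs (1 without Control mouse 5 or EtOH mouse 1, 2, 3 or 4). Over all genes, 576 of 15964 (without Control mouse 2) to 783 of 15954 (without Control mouse 5) were called higher in these fits. With every mouse kept it was 674 of 16059. The cause of these changes was not tested. Same-numbered mice of both groups did not deviate together (r from -0.108 to 0.0182 over 5 pairs), and 0 of 5 EtOH mice correlated best with their own number. The replicate block left the counts of calls among the 10 genes at 2 lower and 0 higher, with Pmaip1 at -1.11 and Phlda3 at -0.64. Pmaip1, Gadd45a and Bbc3 had the fewest counts of the 10 genes, and the effect of depth on them was not tested.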

Other observations

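Of the kinases that signal DNA damage to p53, Atm and Prkdc had an adjusted p under 0.05 without reaching the minimum fold change, while Atr (adjusted p = 0.112 in edgeR), Hipk2 (0.0618), Chek2 (0.386) and Chek1 (0.501) did not pass the test. The log2 fold change of Atm was 0.42 with an adjusted p of 0.0441 in edgeR, from 14.3 ± 3.75 CPM (SD, n = 7) in Control to 19.2 ± 1.89 CPM (SD, n = 5) in EtOH mice. With 1 mouse left out, the adjusted p of Atm lay between 0.00462 (without Control mouse 5, where the log2 fold change of 0.53 met the call) and 0.106 (without EtOH mouse 1), and it was 0.05 or more in 10 of 12 such fits. Hipk2 met the call in 3 of 12 such fits, without Control mouse 5 (log2 fold change 0.58, adjusted p = 0.00578), 6 (adjusted p = 0.0475) or 7 (0.0461), and the adjusted p of Atr was 0.0379 without Control mouse 6. Prkdc, the catalytic subunit of the DNA-dependent protein kinase, stood at 0.35 on the same scale (adjusted p = 0.0185 in edgeR), from 25.2 ± 4.43 CPM (SD, n = 7) to 32.1 ± 1.72 CPM (SD, n = 5). Control mouse 5, at 20.7 CPM of Atm and 31.2 CPM of Prkdc, lay within the EtOH range of both. Both genes have more than 10 kb of annotated exon, a class in which 66.8% of 3069 genes had a positive log2 fold change, against 38.3% of the genes with 2 to 5 kb. At an adjusted p under 0.05 in edgeR, 23.3% of that class and 12.1% of all genes were higher. The kinases were chosen after the values were seen. The part of transcript length in the differences of Atm and Prkdc was not tested.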
